A study of Mus musculus with 6 samples.

Results

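The cholesterol that a cell takes up in lipoprotein passes through a short chain of proteins, and the transcripts of 10 genes of that chain were followed here in tumour cells sorted by their uptake of acetylated low-density lipoprotein (acLDL). The genes are Lipa, Npc1 and Npc2 for release from the lysosome, Soat1 and Plin2 for storage, Abca1 and Abcg1 for export, Mylip for control of the receptors that bring lipoprotein in, and Nr1h2 and Nr1h3 for the sterol-sensing receptors LXRβ and LXRα. They were chosen by gene symbol, and all 10 were found among the 53379 gene IDs of the count table and among the 12572 protein-coding genes tested. The cells were 4T1-T, a sub-clone derived from 4T1, a mammary carcinoma line of the mouse, which forms vessel-like networks in culture (vascular mimicry, VM). After an overnight serum starvation in Opti-Mem with 0.3% BSA, every culture received Alexa-488 acLDL at 10 ug/mL for 4 h, was washed, and spent 1 h in complete medium with serum before trypsin and sorting. The brightest 25% of cells (acLDL-high) and the dimmest 25% (acLDL-low) were collected on 3 separate occasions, giving 3 libraries of poly(A) RNA for each population. The cells between the gates and cells without acLDL were not analysed here, so the data compare degrees of uptake within a single clone and do not measure the response to acLDL itself.

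Lipoprotein that enters by endocytosis is carried to the lysosome, where LIPA, the lysosomal acid lipase, splits its cholesteryl esters. NPC2, a soluble protein of the lysosome lumen, hands the freed cholesterol to NPC1 in the limiting membrane, and a defect in either gene causes Niemann-Pick type C disease. In the endoplasmic reticulum SOAT1 turns surplus cholesterol back into esters, which are kept in lipid droplets coated by PLIN2. Oxysterols activate the LXRs, which bind DNA with a retinoid X receptor (RXR) and raise transcription of the exporters ABCA1 and ABCG1 and of MYLIP, a ubiquitin ligase that sends lipoprotein receptors to degradation. In macrophages that have taken up acLDL, the release and storage steps of this chain are the textbook route to foam cells.

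The libraries held between 70263372 and 94216786 counts, and 3 counts, the limit that a count of 0 allows, corresponded to between 0.0323 and 0.0429 CPM (counts per library scaled to a common size by TMM). That limit covers counting error only. Low counts were mostly even numbers (71.3% of the values from 1 to 20, against 50.3% of those above 1000). How the reads of a pair were counted is not given in the sources used here. If each read was counted, the limit would be 2 times as high, and a count of 2 would be 1 fragment. The 7 epithelial markers of 4T1 cells were all tested and summed to between 2664 and 4198 CPM. Of 16 macrophage markers 5 were tested, and Adgre1, Cd163, Marco, Msr1, C1qa and C1qb had 0 counts in all 6 libraries. The macrophage markers summed to between 19.3 and 21.7 CPM in acLDL-low and between 20.1 and 24.4 CPM in acLDL-high cells, and 1 of them, Cd14, rose (log2 fold change 0.32, edgeR quasi-likelihood adjusted p = 0.0246). Of the 5, 2 had an unadjusted p under 0.05, and the other, Cd68, had a log2 fold change of -0.28 (adjusted p = 0.201). Of 10 endothelial markers 4 were tested, none passed the threshold, and Flt4, Emcn and Cldn5 were at 0 counts. Of the 4, 1 had an unadjusted p under 0.05, Esam, at a mean of 0.377 CPM. It was lower in the acLDL-high library of each pair (log2 fold change -0.90, edgeR adjusted p = 0.167). In the same fit 1 of the 7 epithelial markers, Cldn7, rose (0.30, adjusted p = 0.0102). Of the 7, 3 had an unadjusted p under 0.05, and all had positive log2 fold changes, as did 6356 of the 12572 genes tested. Among all genes tested, 3.43% rose, 1.32% fell and 19.4% had an unadjusted p under 0.05. Whether these markers had a part in the values below was not tested. The paper reports that a larger set of endothelial genes was enriched in acLDL-high cells. That measure used ranked fold changes, is unlike the 10 endothelial markers counted here, and was not repeated.

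Windows of 250 bases before the start of transcription were available for 8 of the 10 genes in RefSeq (build GRCm38.p6), all but Npc1 and Abcg1. Those of Abca1 (chr4:53159896-53160145, minus strand) and Mylip (chr13:45389492-45389741, plus strand) are shown, because these genes are textbook LXR targets whose transcripts stood far apart in level. Each runs 5′ to 3′ toward the start site, with the letters that matched a searched motif in capitals:
Abca1: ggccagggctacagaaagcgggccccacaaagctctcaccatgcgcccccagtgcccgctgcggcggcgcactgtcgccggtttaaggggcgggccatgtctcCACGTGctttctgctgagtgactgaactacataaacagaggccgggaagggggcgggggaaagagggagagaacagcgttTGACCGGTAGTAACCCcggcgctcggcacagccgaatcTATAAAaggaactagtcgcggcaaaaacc
Mylip: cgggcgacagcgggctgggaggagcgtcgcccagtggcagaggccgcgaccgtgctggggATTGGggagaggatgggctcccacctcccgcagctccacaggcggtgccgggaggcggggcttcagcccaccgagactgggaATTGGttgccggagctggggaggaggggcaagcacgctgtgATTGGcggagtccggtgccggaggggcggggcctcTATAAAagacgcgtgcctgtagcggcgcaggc
Motifs were searched on both strands, and positions count back from the start site. The LXR–RXR element was taken as AGGTCA repeated directly with 4 bases between the copies. With at most 2 mismatches it was in none of the windows of these genes and in 2.57% of all 32851 RefSeq windows of this length. With at most 3 mismatches, a setting chosen after the Abca1 sequence was seen, it was found in 18.5% of all windows and, among these genes, in Abca1 alone, at -67 to -52, on the strand opposite to the letters printed. The Abca1 window also held CACGTG at -147 (6.02% of all windows) and TATAAA at -29 (12.4%). The Mylip window held TATAAA at -32 and CCAAT at 3 positions on the strand opposite to the letters printed, a motif of 33.8% of all windows that was also found for Npc2, Soat1, Plin2 and Lipa. The Abca1 and Mylip windows held 20 and 23 CG dinucleotides, against a median of 6. None of the matches overlapped another. Sequence outside these 250 bases was not searched, and binding was not measured. A match, or the lack of one, thus does not show whether an LXR acts on a gene.

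All 10 genes had a count above 0 in every library, though Abca1 had only 2 in each library of replicate 2. Their levels were very unequal. Exon length here is the union of all annotated exons of a gene, which can exceed the transcript expressed. Levels and ratios per kb are thus a rough measure between genes. Per kilobase of exon, Npc2 was the highest, with a mean over the 6 libraries of 57.1 CPM per kb (range 44.5 to 76.4), which is above 94% of the genes tested. Plin2 followed at 44.2 CPM per kb, and the ranges of the 2 genes overlapped. Nr1h2 (19.9) and Soat1 (12.8) came next, each with a range clear of its neighbours. Lipa (2.82), Npc1 (2.76) and Mylip (1.91) formed a lower tier in which Lipa and Npc1, and Npc1 and Mylip, overlapped. Nr1h3 was at 0.719 CPM per kb. The exporters closed the order, with Abcg1 at 0.0597 and Abca1 at 0.0254 CPM per kb, the latter above only 1.3% of the genes tested, and their ranges overlapped.

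**Figure D1:**
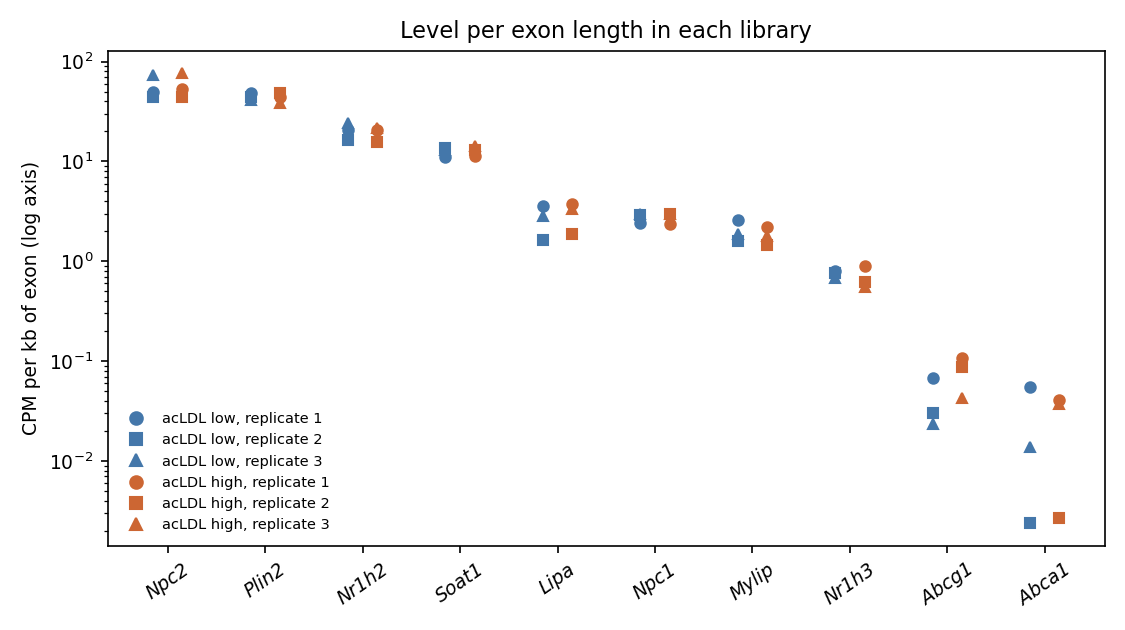
Level of each gene in CPM per kb of exon (log axis) in the 3 acLDL-low (blue) and 3 acLDL-high (orange) libraries, with a marker shape for each replicate number. The genes run from Npc2, at 44.5 CPM per kb or more in every library, to Abca1, which rests on 2 counts in each library of replicate 2.

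Between acLDL-high and acLDL-low cells, none of the 10 genes passed an adjusted p of 0.05 in edgeR's quasi-likelihood test with the occasion as a block, against 4.75% of all genes tested (3.43% higher and 1.32% lower in acLDL-high cells). Those 597 genes became 126 without replicate 3 and 0 without the replicate block. At an unadjusted p under 0.05 there were 2, Lipa and Abcg1, both with higher values in acLDL-high cells, where 19.4% of all genes tested reached that level. DESeq2 called none of the 8 genes to which it gave an adjusted p and gave none to Abca1 and Abcg1. It had 2 of the 10 at an unadjusted p under 0.05. Of all 12572 genes, DESeq2 called 514 and had 1641 at an unadjusted p under 0.05. Of the 10 log2 fold changes 5 were positive and 5 negative, with a median of 0.013 beside 0.0017 for all genes tested. The sign was the same in all 3 pairs for 4 of the genes (Lipa and Abcg1 higher, Mylip and Nr1h2 lower in acLDL-high cells), where 40.4% of all genes tested had such a run. In none of the 10 did the values of the populations stand clear of each other, against 2.86% of all genes tested. In a bulk population, fewer cells that express a gene and less RNA of it per cell cannot be told apart.

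**Figure D2:**
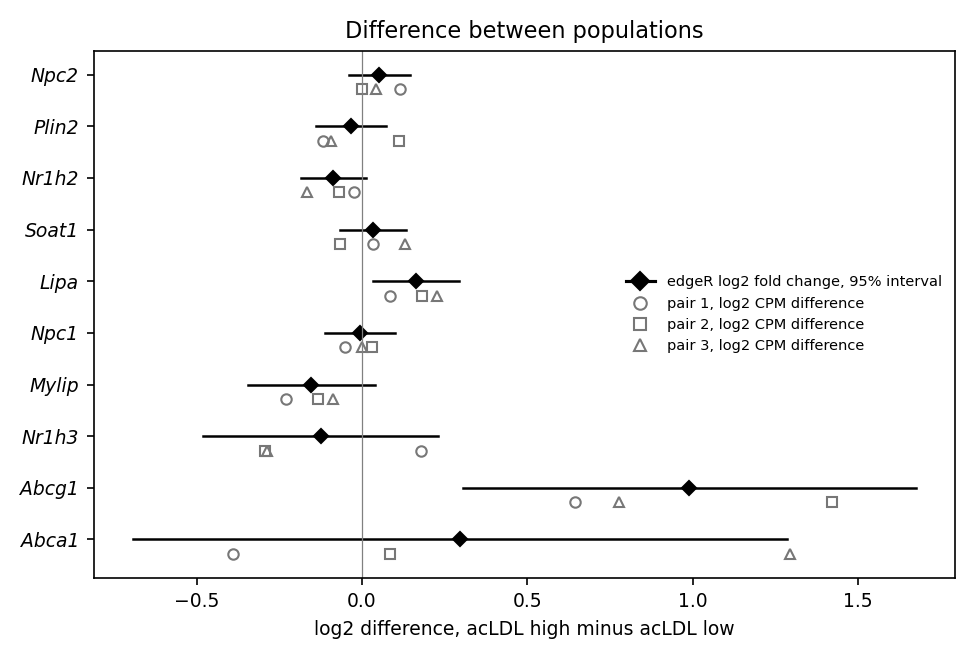
The log2 difference of each gene, acLDL-high minus acLDL-low, as fitted by edgeR (diamond, with its 95% interval) and within each of the 3 pairs (open markers, log2 CPM with a prior count of 2). Intervals of 8 genes cross 0, those of Lipa (0.033 to 0.29) and Abcg1 (0.30 to 1.67) do not, and the Abca1 point of pair 2 rests on 2 counts in each library.

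Of the release genes, Lipa (ENSMUSG00000024781, chr19:34492318-34527474, minus strand) was at 24.1, 11.1 and 19.2 CPM in acLDL-low replicates 1, 2 and 3 and at 25.5, 12.6 and 22.5 CPM in the acLDL-high ones. Each acLDL-high value lay above its own pair, yet both replicate 2 libraries lay below all the others. The log2 fold change was 0.16 ± 0.06 (SE, n = 3 pairs, adjusted p = 0.157), a ratio of 1.12 with a 95% interval of 1.02 to 1.23. Npc2 was at 268, 242 and 404 CPM in acLDL-low and 290, 242 and 416 CPM in acLDL-high cells, so that replicate 3 was the highest in both populations. Npc1 was at 27.5, 32.7 and 33.7 CPM in acLDL-low and 26.5, 33.4 and 33.7 CPM in acLDL-high cells. Its values hardly parted within a pair, and its log2 fold change was -0.0060 (95% interval -0.11 to 0.10, adjusted p = 0.964), while that of Npc2 was 0.052 (-0.041 to 0.14, adjusted p = 0.556). Npc1 overlaps 2 genes of the opposite strand, Rmc1 and Gm15956, and the strand setting of the counting is not given in the sources used here. Per kb of exon the level of Npc2 was between 15.1 and 25.7 times that of Npc1.

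For storage, Soat1 was at 108, 135 and 127 CPM in acLDL-low and at 111, 129 and 139 CPM in acLDL-high cells, a log2 fold change of 0.033 (95% interval -0.067 to 0.13, adjusted p = 0.760). Plin2, the droplet coat, was at 169, 157 and 145 CPM in acLDL-low and at 155, 169 and 136 CPM in acLDL-high cells, with a log2 fold change of -0.033 (-0.14 to 0.074, adjusted p = 0.777). The pairs disagreed in sign for both genes. For Npc1, Npc2, Soat1, Plin2 and Nr1h2 together, the 95% intervals of the ratio of acLDL-high to acLDL-low lay within 0.880 and 1.11. Soat2 (chr15:102150526-102163469, plus strand), the related acyltransferase of intestine and liver, was at 6.37, 3.74 and 8.29 CPM in acLDL-low and at 4.11, 2.24 and 6.45 CPM in acLDL-high cells, lower in 3 of 3 pairs. It fell by 0.56 ± 0.10 on the log2 scale (SE, edgeR adjusted p = 0.00970). The adjusted p was 0.0651 without replicate 3. Per kb of exon, Soat1 exceeded Soat2 by 3.83, 8.16 and 3.47 times in the acLDL-low libraries and by 6.09, 13.0 and 4.88 times in their acLDL-high partners. That ratio was thus higher in the acLDL-high library of every pair, and the difference between the responses of Soat1 and Soat2 was not tested.

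The exporters were the least abundant of the 10 and the only ones with a fitted change above 0.2 in size on the log2 scale. Abcg1 (ENSMUSG00000024030, chr17:31057675-31117988, plus strand), which passes cholesterol to high-density lipoprotein, had 37, 18 and 12 counts in acLDL-low and 62, 46 and 29 counts in acLDL-high cells, or 0.489, 0.223 and 0.171 CPM against 0.779, 0.640 and 0.312 CPM. The acLDL-high value was the higher one in 3 of 3 pairs, while acLDL-low replicate 1 lay above acLDL-high replicate 3. The log2 fold change was 0.99 ± 0.32 (SE, 95% interval 0.30 to 1.67), with an edgeR adjusted p of 0.104. Over the alternatives that gave an adjusted p, which DESeq2 did not, it lay between 0.0651 and 1, and the log2 fold change between 0.73 and 1.24. Abca1 (ENSMUSG00000015243, chr4:53030787-53159895, minus strand), which loads cholesterol onto apolipoprotein A-I, had 43, 2 and 10 counts in acLDL-low and 34, 2 and 36 counts in acLDL-high cells. The pairs went in opposite directions, down in pair 1 and up in pair 3, and both libraries of replicate 2 were under the limit of 3 counts. Its log2 fold change of 0.30 ± 0.46 (SE, 95% interval -0.69 to 1.28, adjusted p = 0.787) was -0.36 without replicate 3 and 1.25 without replicate 1.

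Among relatives of the exporters in the efflux list, Abca7 and Abcg4 were more abundant than Abca1 and Abcg1. Abcg5 was less abundant, at a mean of 0.0165 CPM over the 6 libraries, and Abcg8 had 0 counts. Abca7, a close relative of Abca1, was at 52.4 to 64.9 CPM in the 6 libraries, and per kb of exon it exceeded Abca1 by 153 to 698 times in the 4 libraries of replicates 1 and 3. Abcg4, a relative of Abcg1 found mostly in brain, was at 2.86, 1.57 and 2.29 CPM in acLDL-low and 2.02, 1.61 and 1.86 CPM in acLDL-high cells (log2 fold change -0.27, adjusted p = 0.379). The ratio of Abcg4 to Abcg1 per kb of exon was 8.17, 9.88 and 18.7 in acLDL-low and 3.64, 3.53 and 8.35 in acLDL-high libraries, lower in the acLDL-high library of each pair. That ratio has the low counts of Abcg1 in its denominator, and its difference between the populations was not tested. Scarb1, the receptor that exchanges cholesterol with high-density lipoprotein, was the most abundant gene of the efflux list at 108 CPM over the 6 libraries (log2 fold change 0.027, adjusted p = 0.813).

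Mylip (ENSMUSG00000038175, chr13:45389742-45412022, plus strand), the ligase whose promoter window is printed above, was at 8.34, 5.11 and 6.09 CPM in acLDL-low and at 7.11, 4.66 and 5.73 CPM in acLDL-high cells. The value was lower in the acLDL-high library of each pair, but the populations overlapped. Its log2 fold change was -0.15 ± 0.09 (SE, 95% interval -0.34 to 0.039, adjusted p = 0.381). Of the 7 genes listed as substrates and partners of MYLIP none passed the threshold, and 1 had an unadjusted p under 0.05. Among all genes tested these shares were 4.75% and 19.4%.

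Of the sterol sensors, Nr1h2 was at 69.7, 54.9 and 81.8 CPM in acLDL-low and at 68.6, 52.4 and 72.9 CPM in acLDL-high cells, a little lower in the acLDL-high library of each pair (log2 fold change -0.087 ± 0.045 SE, adjusted p = 0.321). Nr1h3 was at 2.00, 1.93 and 1.70 CPM in acLDL-low and at 2.26, 1.57 and 1.39 CPM in acLDL-high cells, higher in pair 1 and lower in the others (-0.12 ± 0.16 SE, adjusted p = 0.739). Nr1h2 was the major LXR transcript in every library, with 95.5% to 97.5% of the summed level per kb of exon and a ratio to Nr1h3 between 21.3 and 39.3. Nr1h3 shares its strand with the overlapping gene Gm13783, so that its counts carry that uncertainty. Their common partner Rxra was at 48.2 to 57.5 CPM (log2 fold change 0.0012, adjusted p = 0.992), and Rxrg had 0 counts in all 6 libraries. Rxrb had a log2 fold change of -0.13, with the lower value in the acLDL-high library of 3 of 3 pairs, and an edgeR adjusted p of 0.144.

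Like most genes tested, the 10 genes had a wider range over the sort occasions than difference between the sorted populations. For all 10 the range of the 3 occasion means exceeded the size of the fitted difference between the populations, as it did for 95.4% of all genes tested. The measures are unlike, since the range is taken over 3 occasions and the difference over 2 populations. Lipa differed 2.09 times between its highest and lowest occasion, Abcg1 2.5 times, Npc2 1.69 times, Mylip 1.58 times and Nr1h2 1.44 times. Plin2 (1.16), Soat1 (1.22) and Npc1 (1.25) were the steadiest. Replicate 2 was the lowest occasion for Lipa, Npc2, Abca1, Mylip and Nr1h2, whereas replicate 1 was the lowest for Npc1 and Soat1 and replicate 3 for Plin2, Abcg1 and Nr1h3. The genes thus did not follow the occasions in a common order. The counts of Abca1 ran from 2 in both libraries of replicate 2 to 34 and 43 in those of replicate 1.

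**Figure D3:**
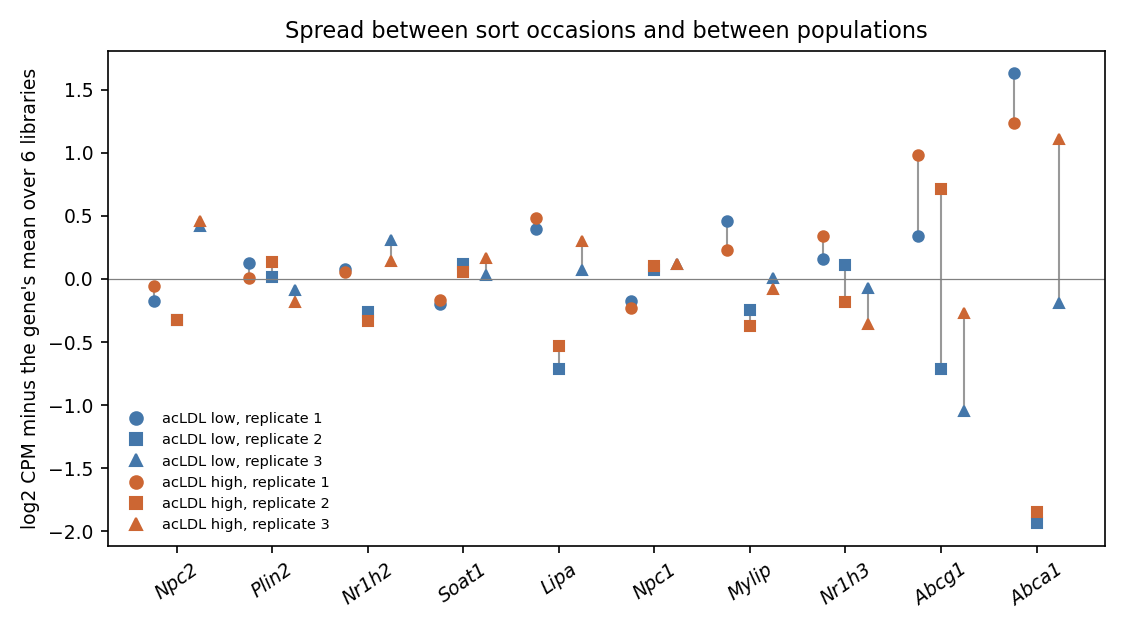
log2 CPM (prior count of 2) of each gene minus its mean over the 6 libraries, with the acLDL-low (blue) and acLDL-high (orange) library of each replicate joined by a line. For Lipa the pair of replicate 2 lies below the other pairs, with 11.1 and 12.6 CPM, and for Abcg1 each orange point lies above its blue partner.

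By Pearson correlation of log2 CPM over the 6 libraries, the tested genes most like Abcg1, the gene with the smallest p, were Susd1 (r = 0.986), Sptb (r = 0.984) and Bik (r = 0.983). Abcg1, Sptb and Bik averaged under 1 CPM, and the 6 libraries were pairs from 3 occasions, each pair sharing its occasion. The r values are thus given as a description of these libraries. The edgeR adjusted p of the 3 genes lay between 0.177 and 0.324.

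The wider pathway was followed in 9 further lists with 122 genes, of which 101 were tested. Of these, 3 rose and 2 fell in acLDL-high cells and 96 did not pass the threshold, beside 3.43% higher and 1.32% lower among all genes tested. Of the 101, 18 had an unadjusted p under 0.05, a level that 19.4% of all genes tested reached. Without replicate 3 none passed in either direction, beside 112 higher and 14 lower of all 12421 genes tested. Without replicate 2 there were 5 that rose and 2 that fell, beside 602 higher and 267 lower of all 12478 genes tested. Among 14 tested genes of lipid droplets and cholesteryl esters, Hsd17b11, a droplet-associated short-chain dehydrogenase, rose and Soat2 fell. Among 9 tested efflux and oxysterol enzymes, Hsd3b7, an enzyme of bile acid synthesis from oxysterols, fell. Among 9 tested LXR targets besides the members, Arl4c, a small GTPase with a role in cholesterol export, rose. Among 7 tested PPAR targets, Angptl4, a secreted inhibitor of lipoprotein lipase, rose. No gene passed the threshold among 21 genes of endosomal cholesterol transport, 10 tested LXR and PPAR partners, 12 SREBP2 targets and 15 genes of the TFEB family and the lysosomal hydrolases.

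Hsd17b11 was at 22.6, 12.3 and 17.8 CPM in acLDL-low and at 27.8, 14.7 and 23.3 CPM in acLDL-high cells (log2 fold change 0.32 ± 0.06 SE, adjusted p = 0.00842). Angptl4 was at 2.22, 2.34 and 1.16 CPM in acLDL-low and at 4.02, 3.55 and 1.74 CPM in acLDL-high cells (0.69 ± 0.14 SE, adjusted p = 0.0122). Both were higher in the acLDL-high library of 3 of 3 pairs, and both still overlapped between the populations. Arl4c was at 281, 196 and 413 CPM in acLDL-low and at 353, 208 and 469 CPM in acLDL-high cells (0.20 ± 0.05 SE, adjusted p = 0.0381). Hsd3b7, which overlaps Gm49388 on its own strand and 9430064I24Rik on the other, was at 7.27, 7.77 and 8.70 CPM in acLDL-low and at 6.06, 6.40 and 5.94 CPM in acLDL-high cells, the only one of the 5 whose populations did not overlap (2.86% of all genes tested). It fell by 0.37 ± 0.09 on the log2 scale (SE, adjusted p = 0.0375). Without replicate 3 the edgeR adjusted p was 0.132 for Hsd17b11, 0.0834 for Angptl4, 0.185 for Arl4c and 0.330 for Hsd3b7. Without replicate 1 it was 0.181 for Arl4c and 0.0726 for Angptl4, and DESeq2 gave 0.0653 for Hsd3b7.

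**Figure D4:**
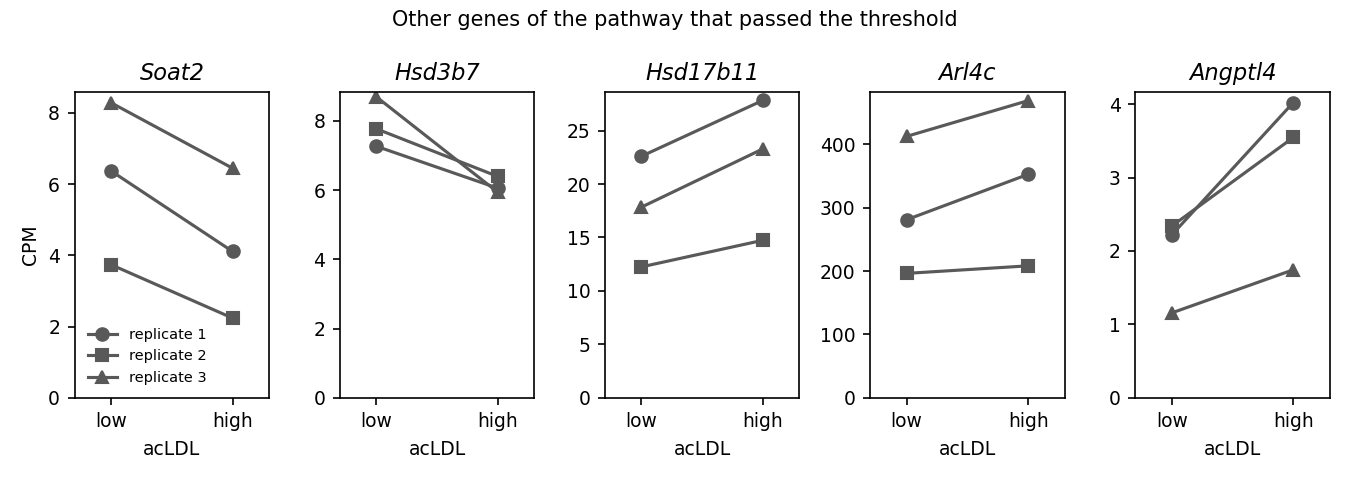
CPM of the 5 other genes of the pathway that passed the threshold, in the acLDL-low and acLDL-high library of each replicate, joined by a line (axes start at 0). All 3 lines fall for Soat2 and Hsd3b7 and rise for Hsd17b11, Arl4c and Angptl4, and the lines of Soat2 start from 3.74 to 8.29 CPM in acLDL-low cells.

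The most abundant genes of 5 of the lists, given here, did not pass the threshold. Lamp1, an abundant protein of the lysosome membrane, was at 593 CPM over the 6 libraries (log2 fold change 0.018, adjusted p = 0.879). Ctsl, a lysosomal protease, was at 1722 CPM (0.11, adjusted p = 0.176). Scd2, a fatty acid desaturase, was at 2856 CPM (-0.028, adjusted p = 0.809). Plin3, a droplet coat protein related to Plin2, was at 68.9 CPM (-0.0034, adjusted p = 0.978), and per kb of exon Plin2 exceeded it by 1.84 to 3.43 times. The LXR corepressor Ncor1 was at 338 CPM (0.047, adjusted p = 0.596). The droplet proteins of fat cells and muscle, Plin1, Plin5 and Cidec, had 0 counts in all 6 libraries, as did Abcg8, Ch25h, Smpdl3a and Cd36.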

How the data were processed

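RNA of 3 acLDL-low and 3 acLDL-high populations of 4T1-T cells was sequenced as stranded poly(A) libraries (paired-end). Per the submitters' processing notes, the tools were STAR (2.5.2a), featureCounts (1.4.3-p1) and DESeq2 (1.20.0) with the build mm10. The authors deposited raw counts per Ensembl gene ID, without normalization. The annotation release and the strand setting of the counting are not given in the sources used here. A second deposited table holds the authors' own DESeq2 comparison (mean normalized count, log2 fold change, its standard error, statistic and p-values). Only its gene IDs and symbols were used, to choose protein-coding genes and match names.

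Of its 15973 genes, 12572 passed filterByExpr. They were fitted with edgeR (4.0.16, R 4.3.3) on TMM-scaled counts by the quasi-likelihood method, and the model held a term for the replicate number. P-values were adjusted by Benjamini-Hochberg over all genes tested (threshold 0.05). Each standard error was derived from the fold change and its F statistic. The numbers mark separate occasions per the series' text. Deviations from the mean of each population correlated at 0.795, 0.846 and 0.799 for same-numbered libraries, against -0.557 to -0.0882 for other couples. Such deviations sum to 0 within a population, so positive values for same-numbered libraries push those of other couples below 0. No library was a repeat of another.

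CPM used TMM-scaled sizes. Exon lengths and positions were taken from GENCODE M21 (GRCm38, the same assembly as mm10), where 53274 of the 53379 gene IDs were found. Promoter windows came from RefSeq. The code was tested on simulated data. The genes named were the members, the genes of each pathway list that passed the threshold (at most 4), its most abundant gene, and the 3 genes most like the member with the smallest p. Abca7, Abcg4, Abcg5, Rxra, Rxrb, Cd14, Cd68, Esam and Cldn7 are not covered by this rule and were added once values were known. Some genes that the rule chose are not reported here. The members and lists were chosen with earlier results of these data known. Alternatives were a fit without the block, DESeq2 (1.42.0), its size factors, no filter, all genes of the count table, at least 10 counts in every library and each pair left out. Counts divided by 2 and rounded were added after seeing that low counts were mostly even.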

Additional observations from a re-analysis of the deposited data

How the results depend on the processing

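None of the 10 genes passed the threshold under the alternatives that gave it an adjusted p, including the fit without the replicate block. DESeq2 gave none for Abca1 and Abcg1. With 3 occasions and few counts for Abca1 and Abcg1, an adjusted p above the threshold does not show that a level was the same. Between 514 and 666 of all genes were called with DESeq2, DESeq2's size factors, all genes of the count table, at least 10 counts in every library or halved counts. Without the replicate block, 0 of 12329 genes were called (45 at an unadjusted p under 0.05), and 0 pathway genes in either direction. Without a filter on low counts 932 genes were called (669 higher, 263 lower), with 5 pathway genes higher. DESeq2 called 1 pathway gene lower. Leaving out 1 pair gave 126 to 869 genes (112 to 602 higher, 14 to 267 lower), the fewest without replicate 3, with 0 to 5 pathway genes higher and 0 to 2 lower. Hsd17b11, Soat2, Hsd3b7, Arl4c and Angptl4 were all above the threshold without the replicate block (adjusted p = 1 for each) and without replicate 3.

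The sign of the log2 fold change turned for Npc1 (0.00036 without the block, 0.00074 without a filter, 0.0041 over all genes of the count table, 0.017 without replicate 1) and for Plin3 (0.0034 without a filter, 0.0067 over all genes, 0.033 without replicate 3). It also turned without replicate 3 for Soat1 (-0.015), Abca1 (-0.36) and Scd2 (0.0051), without replicate 1 for Plin2 (0.011) and Scarb1 (-0.028), and without replicate 2 for Lamp1 (-0.0087). Leaving out 1 pair gave log2 fold changes of -0.026 to 0.017 for Npc1, -0.015 to 0.081 for Soat1, -0.11 to 0.011 for Plin2, -0.36 to 1.25 for Abca1, -0.0087 to 0.057 for Lamp1, -0.034 to 0.033 for Plin3, -0.028 to 0.065 for Scarb1 and -0.061 to 0.0051 for Scd2. The cause was not tested. With at least 10 counts in every library Abca1 was not fitted.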
